A study of Mus musculus with 6 samples.

Results

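Serpins are protease inhibitors, and 6 of their genes were followed here in regulatory T cells (Treg cells) of wild-type mice and BAF60b knockout mice. The 6 genes, taken by symbol from the deposited count table, were Serpina3g and Serpina3f of clade A and Serpinb1a, Serpinb6a, Serpinb6b and Serpinb9 of clade B. They are 6 of 68 serpin rows and of 54232 genes in the table. They were selected on their read counts in these same knockout and wild-type libraries, so the difference between the genotypes in these 6 genes is described below without a test.

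The RNA came from GFP+ Treg cells of mouse spleen, sequenced as 3 libraries from wild-type (WT) mice and 3 from knockout (KO) mice. The knockout is conventional, that is, carried by every cell of the animal and not by Treg cells alone. The Treg cells therefore developed among other cells that carry it too. BAF60b, the product of Smarcd2, belongs to the SWI/SNF complex, which moves nucleosomes and so changes access to DNA. Both genotypes carry the GFP mark used for isolation; for strain, age, reporter allele, deleted exons and the number of mice behind a library, the sources used here give nothing.

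A serpin acts as bait. A protease cuts the exposed reactive centre loop of the inhibitor, the serpin refolds, and both molecules stay locked in a covalent complex and are lost. Most clade A serpins are secreted plasma proteins, but the product of Serpina3g (Spi2A) stays inside the cell and inhibits lysosomal cysteine cathepsins, among them cathepsin B. Clade B serpins are intracellular and guard the cell against proteases that leak from its own granules or come from a neighbour: Serpinb9 inhibits granzyme B, Serpinb6b inhibits granzyme A, Serpinb6a inhibits cathepsin G, and Serpinb1a inhibits the neutrophil proteases elastase, proteinase 3 and cathepsin G. In T cells, which carry granzymes, these inhibitors are known as survival factors.

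The 2 clade A genes are adjacent paralogs, and their upstream sequences are shown because their counts differed between the genotypes in parallel. The sequences of Serpinb6b, which was also lower in KO, and of Serpinb9, which was nearly level, are given for comparison. Each is the stretch of 250 bases before the annotated start, read 5′ to 3′ on the gene's strand, from RefSeq (GRCm38.p6, the build of mm10). For Serpina3f it is the upstream one of 2 listed starts, and the RefSeq starts of Serpinb6b and Serpinb9 lie inside the spans that the deposited table gives for these genes. Of the 6 genes 5 matched an entry. Capitals mark a match to any of 5 motifs searched on both strands: NF-kB (GGG and TTTCC with 2 free bases between them), the STAT element GAS (TTCNNNGAA), the interferon element ISRE (GAAA, 2 free bases, GAAA), AP-1 (TGANTCA) and forkhead (TGTTTAC).
Serpina3g (chr12:104235897-104236146, plus strand): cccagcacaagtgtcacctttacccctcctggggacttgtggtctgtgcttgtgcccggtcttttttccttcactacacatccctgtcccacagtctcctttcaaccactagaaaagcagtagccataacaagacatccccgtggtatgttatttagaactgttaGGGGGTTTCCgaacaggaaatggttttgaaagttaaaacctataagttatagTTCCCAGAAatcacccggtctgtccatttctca
Serpina3f (chr12:104214294-104214543, plus strand): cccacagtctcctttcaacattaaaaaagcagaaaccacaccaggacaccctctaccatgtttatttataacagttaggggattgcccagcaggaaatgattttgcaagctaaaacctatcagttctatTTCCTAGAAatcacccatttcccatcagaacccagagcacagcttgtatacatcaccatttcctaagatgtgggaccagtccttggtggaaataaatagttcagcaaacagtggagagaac
Serpinb6b (chr13:32965011-32965260, plus strand): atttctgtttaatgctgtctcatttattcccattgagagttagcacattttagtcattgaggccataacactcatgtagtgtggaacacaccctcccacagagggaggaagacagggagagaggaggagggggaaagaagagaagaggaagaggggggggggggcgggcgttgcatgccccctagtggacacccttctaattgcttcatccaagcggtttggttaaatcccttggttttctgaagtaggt
Serpinb9 (chr13:33004291-33004540, plus strand): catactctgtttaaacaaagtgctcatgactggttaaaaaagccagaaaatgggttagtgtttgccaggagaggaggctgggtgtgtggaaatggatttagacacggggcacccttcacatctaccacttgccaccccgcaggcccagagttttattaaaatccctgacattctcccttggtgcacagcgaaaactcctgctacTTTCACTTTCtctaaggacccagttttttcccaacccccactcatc

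The Serpina3g window held an NF-kB match (GGGGGTTTCC, bases -85 to -76 from the start) and a GAS match (TTCCCAGAA, -33 to -25). The Serpina3f window held a GAS match (TTCCTAGAA, -121 to -113) in a similar surrounding: the windows of the paralogs aligned over 161 bases without gaps with 82.6% identity. The Serpinb9 window held an ISRE match (TTTCACTTTC, on the minus strand), and that of Serpinb6b held none of the 5. For Serpinb6a 2 starts are listed, and their windows are not printed. In the window of the upstream start a GAS match (TTCCGGGAA) overlapped an ISRE match (TTTCGATTTC), and the other window held none of the 5. Among 32536 distinct windows of the same length, 1.4% held the NF-kB motif, 7.04% GAS, 2.98% ISRE, 6.73% AP-1 and 3.17% forkhead. A match describes letters only, and no binding was measured.

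The genes lie in 2 clusters. On mm10 chromosome 12, Serpina3f (ENSMUSG00000066363, 104214544 to 104221129, plus strand) and Serpina3g (ENSMUSG00000041481, 104236245 to 104241939, plus strand) are 15.1 kb apart, with 1 gene without reads between them. On chromosome 13, Serpinb1a (ENSMUSG00000044734, 32842092 to 32851185, minus strand), Serpinb6b (ENSMUSG00000042842, 32965209 to 32979067, plus strand), Serpinb9 (ENSMUSG00000045827, 33003250 to 33017957, plus strand) and Serpinb6a (ENSMUSG00000060147, 33917918 to 34002794, minus strand) span 1160 kb. The annotated coding sequences of Serpina3g and Serpina3f were 87.4% identical over 744 aligned bases and those of Serpinb6a and Serpinb6b 86.3%. All other pairs lay between 60.4% and 69.1%. Of the stretches of 50 bases in the longest coding transcript, 16.0% in Serpina3g and 10.7% in Serpina3f also occurred in another gene, mostly in other Serpina3 copies. The share was 3.4% for Serpinb1a, 3.1% for Serpinb6b and 0.4% for Serpinb9. No source used here says how such reads were assigned, and the counts of Serpina3g and Serpina3f carry this uncertainty. For Serpinb6a the share was 20.7%, largely with 1110046J04Rik on the opposite strand, which had 15 reads in all libraries. Its exons also overlap those of Ripk1 (241 bases) and Nqo2 (762 bases) on the opposite strand, and no source says whether the counting used strand, which leaves the count of Serpinb6a uncertain.

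Libraries held between 18167053 and 22502804 reads. Smarcd2 was lower in every KO library (57.5 to 59.0 CPM, against 192 to 204 CPM in WT). CPM is the read count scaled to a common library size after TMM. The KO mean of Smarcd2 was 29.3% of the WT mean, and its protein was not measured. A list of 8 markers of Treg cells and of T cells in general, Foxp3, Il2ra, Ctla4, Ikzf2, Tnfrsf18, Cd4, Cd3e and Cd3d, summed to between 4610 and 4770 CPM in WT and between 4810 and 5170 CPM in KO, and 1 of the 8, Ikzf2, was called (higher, log2 fold change 0.42). Lists of 8 or 9 markers of other cells were low but had reads: the sums were at most 20.8 CPM for B cells, 21.7 for NK and CD8 T cells, 15.1 for erythroid cells and platelets, and 101 for dendritic cells, whose list includes Bst2. Called members were Cd79b (lower, log2 fold change -0.69) and Cd22 (higher, 1.19) of the B cell list and Klrb1c (lower, -1.14) of the NK and CD8 T cell list. No marker of these lists was at 0 in all 6 libraries. Monocyte and macrophage markers summed to 28.5 to 37.6 CPM in WT and to 42.8, 96.8 and 16.2 CPM in KO 1, 2 and 3. Neutrophil markers summed to 9.33 to 11.7 CPM in WT and 5.26 to 7.64 CPM in KO. Nearly all of this was Mmp9, which fell (log2 fold change -0.91, edgeR adjusted p = 0.00949). Ltf, the other neutrophil marker tested, was higher in every KO library (0.21 against 0.58 CPM, log2 fold change 1.47, edgeR adjusted p = 0.0883). It had 6, 3 and 3 reads in WT and 12, 10 and 14 in KO. It passed the count filter only through its KO libraries, where it was high, so its p-value carries no weight. S100a8, S100a9, Camp, Ngp, Mpo and Cxcr2 had at most 10 reads each in all libraries together. Transcripts of 4 Y-linked genes were at 0 in WT 1 and KO 2, and Xist was at 0 in KO 3. WT 2, WT 3 and KO 1 held both, as a mix of male and female cells would (Y-linked 144, 246 and 305 CPM, Xist 255, 130 and 88.6 CPM). The sex of the cells therefore differed within each genotype. The labels do not tie libraries to separate mice. A p-value therefore covers the spread among these 6 libraries and no more. Since Y-linked and Xist levels differed within each genotype, the 3 libraries of a genotype were not repeats of 1 RNA pool.

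Serpina3g, the cathepsin inhibitor, was the most abundant serpin transcript and the one with the largest loss in reads. WT libraries 1, 2 and 3 gave 3245, 3478 and 3061 reads of it, while KO libraries 1, 2 and 3 gave 1944, 1747 and 2142, which is 178, 166 and 154 CPM against 97.7, 88.9 and 94.7 CPM. The groups did not overlap, and the gap between the lowest WT and the highest KO library was wider than the spread within either genotype. The mean went from 166 ± 11.8 CPM to 93.8 ± 4.48 CPM (SD, n = 3 per genotype), which leaves 56.5% of the WT level, a log2 fold change of -0.82 (KO minus WT, SE 0.06). In sorted bulk cells, fewer cells of a type and less RNA per cell cannot be told apart.

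Serpina3f, its neighbour and paralog, had the largest relative difference of the 6. It was covered by 221, 218 and 210 reads in the WT libraries, as against 113, 81 and 97 in the KO libraries, or 12.1, 10.4 and 10.6 CPM against 5.68, 4.12 and 4.29 CPM. Every KO library was below every WT library. On average WT cells held 11.0 ± 0.93 CPM and KO cells 4.70 ± 0.85 CPM, 42.5% of the WT level (log2 fold change -1.23, SE 0.15). Per 100 reads of Serpina3g there were 6.81, 6.27 and 6.86 reads of Serpina3f in WT and 5.81, 4.64 and 4.53 in KO, so the ratio of the paralogs was lower in each KO library too.

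**Figure D1:**
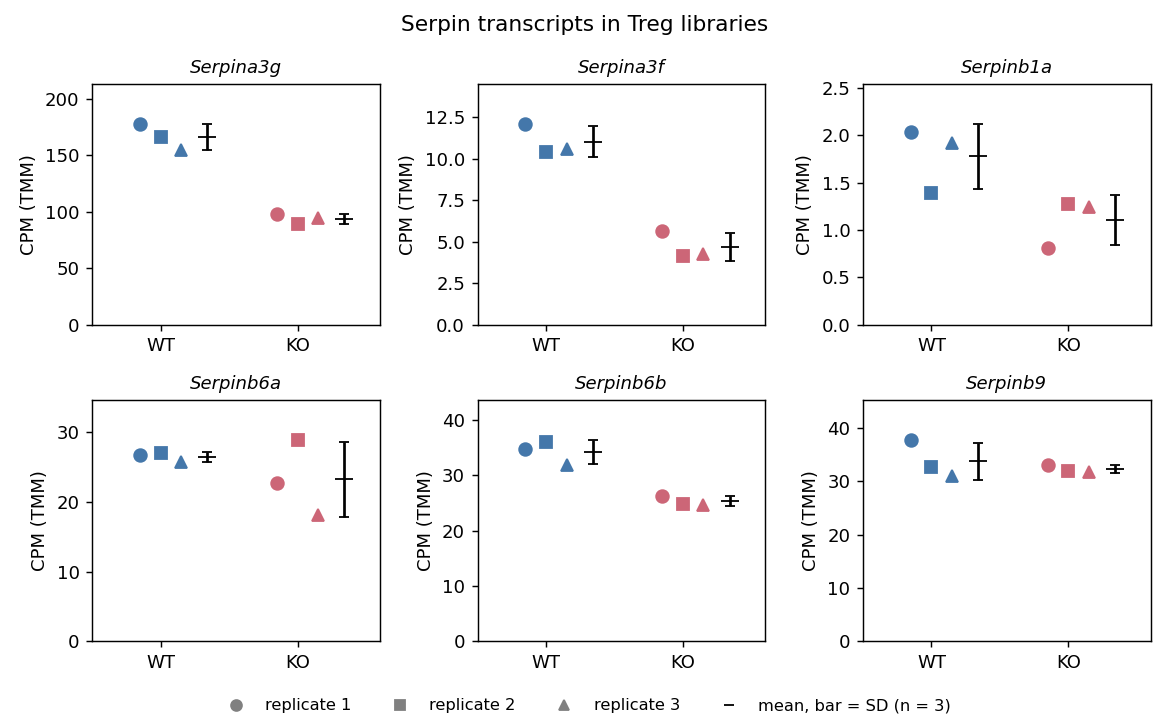
TMM-scaled CPM of the 6 serpin genes in each library, WT in blue and KO in red, with symbols for the replicate number and black marks for the mean ± SD (n = 3 per genotype). Serpina3g, Serpina3f, Serpinb1a and Serpinb6b show every KO library below every WT library, Serpinb9 and Serpinb6a overlap, and the KO libraries of Serpinb6a spread from 18.1 to 28.9 CPM.

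Of the clade B genes, Serpinb6b, whose product inhibits granzyme A, had the smallest SE. It stood at 34.8, 36.0 and 31.8 CPM in WT and at 26.3, 24.9 and 24.7 CPM in KO, again with no overlap. From a WT mean of 34.2 ± 2.14 CPM the KO mean of 25.3 ± 0.89 CPM was 74.0% (log2 fold change -0.43, SE 0.07).

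Serpinb1a, the inhibitor of neutrophil proteases, was scarce, with 37, 29 and 38 reads in the WT libraries, against 16, 25 and 28 in the KO libraries. Scaled, these were 2.03, 1.39 and 1.92 CPM against 0.80, 1.27 and 1.24 CPM. The groups did not overlap, but WT 2 and KO 2 lay close together. The log2 fold change was -0.68 with an SE of 0.29, the widest of the 6, and without KO replicate 1 it was -0.50. Of the neutrophil markers, Mmp9 was lower in every KO library and Ltf higher in every KO library, and S100a8, S100a9, Camp, Ngp and Mpo were near 0. Of the proteases it inhibits, Elane had 2 reads, Ctsg 1 and Prtn3 10 in all 6 libraries together (Prtn3 had 0, 1 and 1 in WT against 5, 3 and 0 in KO).

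Serpinb9, the granzyme B inhibitor, had the smallest difference of the 6. WT libraries stood at 37.7, 32.6 and 31.0 CPM, KO libraries at 33.1, 31.9 and 31.8 CPM. The KO libraries lay within the range of the WT libraries, and the means were 33.8 ± 3.52 and 32.3 ± 0.72 CPM (log2 fold change -0.06, SE 0.08). The sign rested on WT replicate 1, without which the log2 fold change was 0.02.

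Serpinb6a, the cathepsin G inhibitor, was steady in WT (26.7, 27.0 and 25.7 CPM) and uneven in KO (22.8, 28.9 and 18.1 CPM). KO 2 was above every WT library, and KO 1 and KO 3 were below. The log2 fold change was -0.19 (SE 0.14), -0.38 without KO replicate 2, -0.04 without KO replicate 3 and -0.07 with the level of Y-linked transcripts as a covariate. The order of the KO libraries was that of their macrophage markers (96.8 CPM in KO 2, 42.8 in KO 1 and 16.2 in KO 3). It was also the reverse of their Y-linked transcripts (0, 305 and 448 CPM in KO 2, 1 and 3). In WT the order of Serpinb6a was not that of the macrophage markers (28.5, 37.6 and 32.8 CPM in WT 1, 2 and 3). Nor was it the reverse of the Y-linked transcripts (0, 144 and 246 CPM in WT 1, 2 and 3). The WT libraries of Serpinb6a lay close together, so their order carries little weight for either. The part of either in the result was not tested.

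In all, 4 of the 6 genes had every KO library below every WT library. Among all 13602 genes tested, 13.0% did. Since this contrast was known when the genes were chosen, the comparison carries no weight. All 6 passed the filter on low counts. Leaving out WT 1 and KO 2, the libraries without Y-linked transcripts, gave log2 fold changes of -0.74 for Serpina3g and -1.08 for Serpina3f. For Serpinb6a and Serpinb9 the values were between -0.38 and 0.03 over all settings tried.

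Read per kilobase of exon (RPKM, from the TMM-scaled CPM), the levels in WT ran from Serpina3g (78.9 ± 5.59) through Serpinb6b (15.1 ± 0.95), Serpinb9 (9.66 ± 1.01), Serpinb6a (4.89 ± 0.12) and Serpina3f (4.82 ± 0.41) to Serpinb1a (0.77 ± 0.15). Serpinb6a and Serpina3f overlapped in WT and cannot be ranked. Every other neighbour in this order was separated in all 3 libraries. In KO the order was the same, with Serpina3g at 44.5 ± 2.13, Serpinb6b at 11.2 ± 0.39, Serpinb9 at 9.24 ± 0.21, Serpinb6a at 4.30 ± 0.99, Serpina3f at 2.05 ± 0.37 and Serpinb1a at 0.48 ± 0.11. There Serpinb6a and Serpina3f no longer overlapped. The lead of Serpinb6b over Serpinb9 was narrower in KO, between levels of 10.9 to 11.6 and 9.11 to 9.48 RPKM, against 14.1 to 15.9 and 8.86 to 10.8 RPKM in WT.

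All serpin transcripts together came to 313, 295 and 276 CPM in WT and 206, 202 and 195 CPM in KO. Serpina3g alone accounted for 72.3 of the 93.9 CPM by which the means differed (77.0%), Serpinb6b for 9.46% and Serpina3f for 6.75%. The make-up therefore differed too. Serpina3g held 56.8%, 56.4% and 55.8% of serpin reads in the WT libraries and 47.4%, 44.0% and 48.7% in the KO libraries. The 95% Wilson intervals, which cover counting error only, ran from 54.5% to 58.1% over the WT libraries and from 42.5% to 50.2% over the KO libraries. They are no test of genotype, since replicates differed beyond counting error and the gene was selected on these counts. Serpinb9 held 12.0%, 11.1% and 11.2% in WT and 16.1%, 15.8% and 16.4% in KO, while its own level overlapped between the genotypes.

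**Figure D2:**
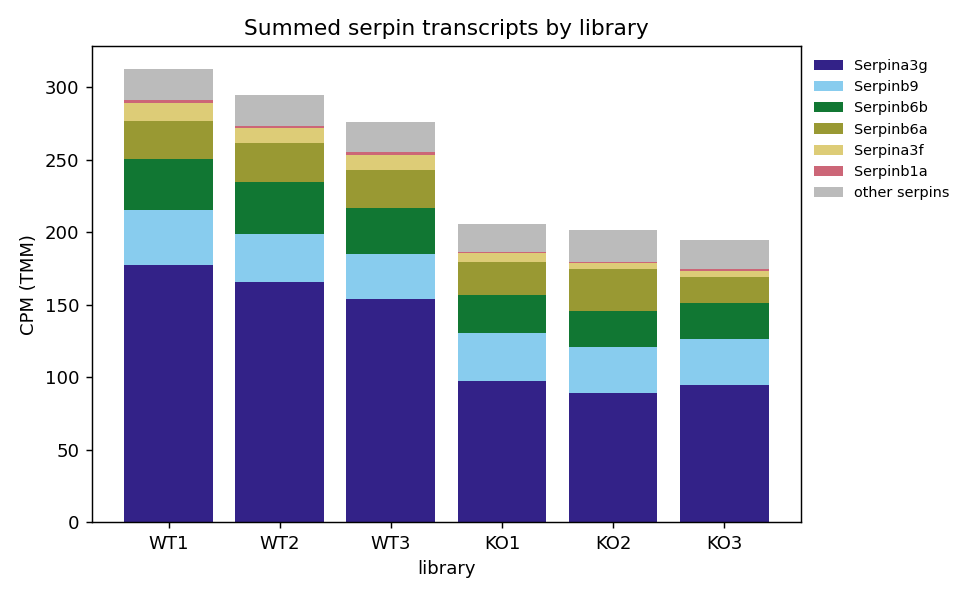
Stacked bars of TMM-scaled CPM of all serpin genes in each library. The bars stand at 276 to 313 CPM in WT and 195 to 206 CPM in KO, and the segment of Serpina3g at the base accounts for most of the difference.

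The other 62 serpin rows were taken as a family list. Of these, 42 had no read, 16 had too few for the test and 4 were tested, of which 1 was called (lower in KO) by edgeR's quasi-likelihood test at a Benjamini-Hochberg adjusted p under 0.05. Among all genes tested 6.45% were called, 3.25% as higher and 3.20% as lower in KO. That gene was Serpinf1, which encodes pigment epithelium-derived factor, a secreted serpin that does not inhibit proteases. Its level dropped in KO, at 1.75, 1.29 and 1.21 CPM in the WT libraries against 0.65, 0.31 and 0.44 CPM in the KO libraries (log2 fold change -1.59, SE 0.35, edgeR adjusted p = 0.0261). It passed the count filter through its WT libraries, and the call was lost when any library but KO 1 was left out (adjusted p up to 0.219 over all settings). Serpini1, the neuroserpin gene, was at 14.4 ± 0.59 CPM in WT against 13.8 ± 1.17 CPM in KO (log2 fold change -0.06). Serpinc1, which encodes antithrombin, had a log2 fold change of 0.18, and Serpine2, which encodes protease nexin 1, one of 0.04. The closest copies were all but silent: Serpina3h had 4 reads, Serpina3i 2, Serpinb6c 5 and Serpinb9b 1 read in all 6 libraries together, and Serpina3n had none.

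Proteases and partners of the inhibitors were examined next, in lists chosen with earlier results of these data known, so their counts are a description. Of 13 granule genes tested, 2 rose, 1 fell and 10 were not called (median log2 fold change 0.08, against 0.00 over all genes tested). Over all genes tested 6.45% were called. Gzmb, which encodes granzyme B, rose: the WT libraries had 24.4, 21.9 and 25.2 CPM, the KO libraries 80.4, 89.0 and 107 CPM (log2 fold change 1.95, SE 0.10, edgeR adjusted p = 3.24e-05). Every KO library was above every WT library by a wide margin. Gzmc, a further granzyme, rose too, with 1.85 ± 0.38 CPM in WT against 3.76 ± 0.18 CPM in KO (log2 fold change 1.02, SE 0.21, edgeR adjusted p = 0.0189). Prf1, which encodes the pore-forming perforin that lets granzymes enter a target, fell, with 12.0 ± 0.69 CPM in WT against 7.53 ± 1.47 CPM in KO (log2 fold change -0.68, SE 0.15, edgeR adjusted p = 0.0221). The calls of Gzmc and Prf1 were lost when any WT library was left out and without WT 1 and KO 2 together (adjusted p up to 0.155 and 0.0916). The NK and CD8 T cell markers went in both directions. Klrb1c fell (2.58 ± 0.38 CPM in WT, 1.17 ± 0.33 CPM in KO, edgeR adjusted p = 0.0353). Eomes was higher in every KO library but not called (log2 fold change 0.71, edgeR adjusted p = 0.056). Ncr1 had 0 reads in each WT library and 4, 5 and 1 in KO 1, 2 and 3. The summed markers overlapped (18.1 to 21.4 CPM in WT, 19.8 to 21.7 CPM in KO), and their part in the granule values was not tested. Gzma, the target of Serpinb6b, was scarce, at 2.05 ± 0.25 CPM in WT against 1.41 ± 0.70 CPM in KO (log2 fold change -0.55, adjusted p = 0.415).

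Set against its inhibitor, the granzyme B transcript stood at 1.57, 1.64 and 1.98 times the RPKM of Serpinb9 in WT 1, 2 and 3 and at 5.91, 6.79 and 8.18 times in KO 1, 2 and 3. The ratio averaged 1.73 ± 0.22 in WT and 6.96 ± 1.15 in KO, and did not overlap, while Serpinb9 itself overlapped between the genotypes. The corresponding ratio of Gzma to Serpinb6b was below 1 in every library (0.125 to 0.142 in WT, 0.0764 to 0.198 in KO) and overlapped. These are ratios of transcripts, and protein was not measured.

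**Figure D3:**
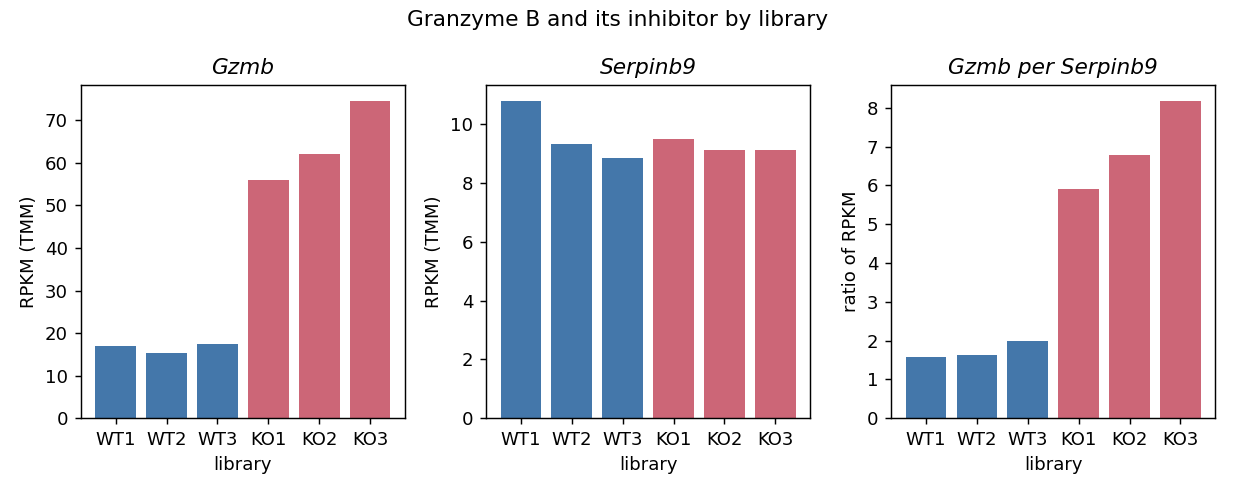
Bars of the RPKM of Gzmb and of Serpinb9 in each library, and of their ratio, WT in blue and KO in red. The ratio lies between 1.57 and 1.98 in WT and between 5.91 and 8.18 in KO, while Serpinb9 stays between 8.86 and 10.8 RPKM.

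The cathepsins, which include targets of Serpina3g, gave no call in edgeR. Of 13 tested, 0 passed, 4 had an unadjusted p under 0.05 (as had 2780 of all 13602 genes tested), and 0 passed in DESeq2 or limma-voom (median log2 fold change -0.02). Ctsb, which encodes cathepsin B, stood at 381 ± 17.5 CPM in WT against 325 ± 46.6 CPM in KO (log2 fold change -0.23, edgeR adjusted p = 0.190), with KO 2 inside the WT range. Its adjusted p was below 0.05 without KO replicate 2 and without a filter on low counts, and at most 0.400 in the other settings. Ctsl (log2 fold change -0.18) and Ctsc, the activator of granzymes (0.03), were not called either. Of 8 caspases tested, 0 passed in edgeR, DESeq2 or limma-voom, 0 had an unadjusted p under 0.05 in edgeR, and log2 fold changes lay between -0.14 and 0.12. The share called by edgeR over all genes tested was 6.45%, at which lists of 13 and 8 genes can easily hold none.

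A list of other protease inhibitors and their relatives, outside the serpin family, had 12 genes tested. Of these 1 rose and 3 fell (median log2 fold change -0.03), and not every one is an established inhibitor. Over all genes tested 6.45% were called, but this list too was chosen with earlier results of these data known. Spock2, which encodes the proteoglycan testican 2, rose, with 97.3 ± 11.5 CPM in WT against 150.2 ± 4.03 CPM in KO (log2 fold change 0.63, SE 0.08, edgeR adjusted p = 0.00176). The metalloprotease inhibitors Timp2 (log2 fold change -0.32, edgeR adjusted p = 0.0210) and Reck (-0.46, adjusted p = 0.0394) fell, as did Itih5 (-0.30, adjusted p = 0.00808), a relative of the inter-alpha-trypsin inhibitor heavy chains. The call of Reck was lost when any library was left out (adjusted p up to 0.157), and with library-size scaling (0.051), the replicate block (0.0509) or the Y-linked level as a covariate (0.0716). Timp2 missed the threshold when WT 1 or WT 3 was left out (adjusted p up to 0.0855). Without WT 1 and KO 2 together, the calls of Reck (adjusted p = 0.206), Timp2 (0.176) and Itih5 (0.0944) were lost. The cystatins, which like Serpina3g inhibit cysteine cathepsins, were not called: Cstb had a log2 fold change of -0.02, Cst3 of -0.04 and Cst7 of 0.09.

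**Figure D4:**
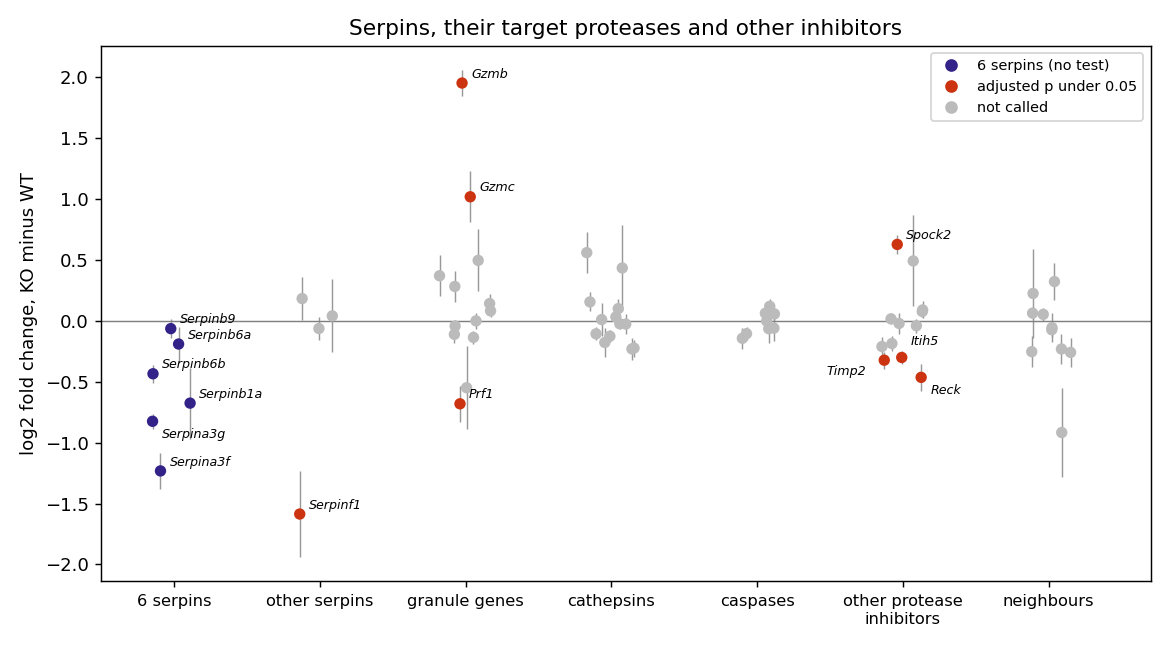
Log2 fold change (KO minus WT, bars are SE) of the 6 serpin genes (blue, not tested) and of the tested genes of 6 lists, with genes called by edgeR in red and the others in grey. The 6 genes, selected on this contrast, lie at or below 0, from -0.06 to -1.23. The cathepsins, caspases and neighbouring genes hold no call, where 6.45% of all genes tested were called.

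Genes around the clusters gave no call. Of 100 other genes within 500 kb of any of the 6, 26 had a read and 10 were tested. By edgeR 0 were called, 1 had an unadjusted p under 0.05 (4930447K03Rik, log2 fold change -0.92, adjusted p = 0.190), and 0 passed in DESeq2 or limma-voom. Over all 13602 genes tested, 2780 had an unadjusted p under 0.05 and 6.45% were called. The 10 tested were Dicer1 on chromosome 12 and 9 genes on chromosome 13. Ripk1, whose exons overlap Serpinb6a, had a log2 fold change of 0.06, and Nqo2 had 0.32. Beside the clade A pair only Dicer1, 446 kb away, had enough reads to test (log2 fold change -0.07).

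Other genes whose levels followed each serpin most closely over the 6 libraries were named by Pearson's r of log2 CPM among 8310 genes of at least 10 CPM, as a description. For Serpina3g they were Gdpd5 (r = 0.997), Rnf166 (0.996) and Abcb9 (0.994), and for Serpina3f they were Sft2d2 (0.998), Pitpnm2 (0.998) and Cers6 (0.997). For Serpinb6b they included G3bp2 (0.993) and Rnf166 (0.993), so Rnf166 stood near both Serpina3g and Serpinb6b. All of these r values include the step between the genotypes. For Serpinb1a they were Litaf (0.986), Pank2 (0.981) and Nrn1 (0.978). Serpinb6a was closest to Sephs1 (0.993), St6gal1 (0.988) and Cfap97 (0.988), and Serpinb9 to Ncaph2 (0.992), Zscan21 (0.977) and Flywch1 (0.969). With 6 libraries and 8310 genes searched, the highest r is high by selection.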

How the data were processed

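RNA of GFP-positive Treg cells was sequenced in 3 WT and 3 KO libraries. The authors deposited raw read counts per Ensembl gene, without normalization. Per the submitters' processing notes, the tools included HISAT2 2.1.0, fastp 0.23.2, DESeq2 1.34.0 and Picard, and the build was mm10. The counter, its use of strand and the annotation release: not given in the sources used here. Symbols turned into dates (27) were restored by gene identifier.

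Genes were kept by filterByExpr (minimum count 10, minimum total 15), scaled by TMM and tested with edgeR 4.0.16 (R 4.3.3) by the quasi-likelihood F test, genotype only, with Benjamini-Hochberg adjustment over 13602 genes. An exact permutation test of 3 against 3 cannot go below p = 0.1. The SE is the log2 fold change divided by the square root of F. Exon lengths and transcripts came from GENCODE M21 (mm10), and alignments were made with Biopython 1.88. Replicates of a genotype differed beyond sampling noise (lowest chi-square over its degrees of freedom 5.39), so each counted as 1. The steps were tested on simulated counts. A count of 0 allows up to 3 counts, 0.133 to 0.164 CPM in a library.

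The 6 genes and all lists were chosen with earlier results of these data known. Named are the 6 genes, Smarcd2, called serpins, the other serpins tested, up to 8 called genes per list by adjusted p, Gzma, Gzmb, Prf1, Ctsb, Ctsl and Ctsc, and the 3 genes most like each serpin in r (without Gm and Rik symbols and receptor segments). A gene that this rule names is not reported here. Other genes were named after their values were seen. Alternatives were RLE or library-size scaling, no filter, DESeq2 1.42.0, a filter at a mean of 2 CPM, limma-voom (limma 3.58.1), a replicate block and each library left out. Leaving out the libraries without Y-linked transcripts, and their level as a covariate, were chosen after seeing the data.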

Additional observations from a re-analysis of the deposited data

How the results depend on the processing

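The log2 fold changes of the 6 serpin genes moved by less than the spread between replicates in every setting tried (14 for Serpinb1a, which a mean of 2 CPM removes, and 15 for the others). With 3 libraries per genotype, leaving out 1 can hardly shift a mean by more than that spread, whatever the values. For those settings the comparison therefore says nothing about stability. Only Serpinb9 changed sign, being positive in 2 of its 15 settings. With 1 library left out the values ran from -0.88 to -0.78 for Serpina3g, -1.39 to -1.15 for Serpina3f, -0.83 to -0.50 for Serpinb1a, -0.38 to -0.04 for Serpinb6a, -0.48 to -0.40 for Serpinb6b and -0.12 to 0.02 for Serpinb9. The number of genes called over the whole table was 877, and 1624 without a filter, where 24676 genes were tested, 186 without the libraries lacking Y-linked transcripts, where fewer samples enter, and 344 to 848 with 1 library left out (344 without WT replicate 1, 344 without WT replicate 2 and 556 without WT replicate 3). Other serpins called were 0 at a mean of 2 CPM, which removes Serpinf1, 0 without the libraries lacking Y-linked transcripts and 0 to 1 with 1 library left out. Granule genes called were 1 without the libraries lacking Y-linked transcripts and 1 to 3 with 1 left out. Cathepsins called were 3 without a filter, 1 with the Y-linked level as a covariate and 0 to 1 with 1 left out (1 without KO replicate 2). Other protease inhibitors called were 1 without the libraries lacking Y-linked transcripts and 2 to 3 with 1 left out. Where a setting changes neither genes nor samples, the cause was not tested.

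Replicate numbers are not said to pair samples. The deviations of same-numbered libraries correlated at -0.125, 0.0537 and 0.147, and those of differently numbered libraries at between -0.259 and 0.252. With 3 libraries per genotype, these values cannot decide whether the numbers pair samples. With the replicate block 738 genes were called, 1 other serpin, 3 granule genes, 0 cathepsins, 0 caspases, 3 other protease inhibitors and 0 neighbours, and the log2 fold change was -0.82 for Serpina3g, -1.24 for Serpina3f, -0.68 for Serpinb1a, -0.21 for Serpinb6a, -0.43 for Serpinb6b and -0.06 for Serpinb9. Depth limits Serpinb1a and Serpinf1, with at most 38 reads in a library.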
